A study of Mus musculus with 15 samples.

Results

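The nuclear genes of oxidative phosphorylation were followed across 5 groups of mouse small intestinal epithelium. They were taken as the genes whose symbol begins with Nduf, Sdh, Uqcr, Cox4, Cox5, Cox6, Cox7, Cox8 or Atp5, and numbered 93 of the 19938 genes with a symbol on the array. By symbol, 82 were subunits or named relatives of subunits and 11 were assembly factors, so the set is wider than the subunits alone. It held 36 genes of complex I, 4 of complex II, 8 of complex III, 17 of complex IV and 17 of the ATP synthase. Of these, 89 passed the level filter and were tested. The remaining 4 were Cox7b2, Cox8b, Cox8c and Ndufa4l2, whose level stayed below the filter in each of the 5 groups.

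RNA came from epithelial cells isolated from adult mice and was hybridised to 15 Affymetrix Mouse Gene arrays, 3 in each group. The groups were the ileum of Gata4 cKI (conditional knockin) mice, the ileum of mice labelled control, the jejunum of Gata4 cKO (conditional knockout) mice, and the jejunum and the ileum of wild-type CD1 mice. GATA4 is a transcription factor made in the jejunum and largely absent from the distal ileum. The labels gave neither the Cre driver, the exons deleted, the strain of the cKI, control and cKO mice nor their ages, and no control jejunum from cKO litters was among the samples, so the jejunum labelled cKO was set against wild-type CD1 jejunum. No label says whether each array of a group is a different mouse; p-values here reflect the spread among the arrays, part or all of which may be technical. For arrays, their number limits the precision.

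Gata4 itself had log2 levels of 8.02, 8.43 and 8.17 in cKI ileum, against 6.72, 7.22 and 6.53 in control ileum. It had 9.72, 9.88 and 9.93 in the jejunum labelled cKO, against 9.68, 9.45 and 9.47 in wild-type jejunum, and 5.99, 5.43 and 5.39 in wild-type ileum. Gata4 rose in cKI ileum over control ileum by 1.38 ± 0.185 (SE, limma, adjusted p = 0.00453). In the jejunum labelled cKO it was not lower than in wild-type jejunum (difference 0.31 ± 0.185, limma, adjusted p = 0.322). Since the labels do not say which exons were deleted, this transcript-wide level does not check the knockout label.

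Oxidative phosphorylation passes electrons from NADH through complex I, and from succinate through complex II, to ubiquinone, then through complex III and cytochrome c to oxygen at complex IV. Complexes I, III and IV pump protons across the inner mitochondrial membrane, and the ATP synthase uses their return to make ATP. Complex II is also an enzyme of the tricarboxylic acid cycle and has no subunit encoded in mitochondrial DNA. In the intestine, absorptive enterocytes use this ATP for the sodium gradient that drives nutrient uptake. The 13 subunits encoded in mitochondrial DNA were not analysed here.

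Promoters are shown for Sdha, Sdhb and Sdhd of complex II, the complex in which each gene passed the test between wild-type jejunum and ileum, for the complex II assembly factor Sdhaf3, and for Cox7a1, the gene with the largest difference there; the promoter of Sdhc was not analysed here. The sequences are RefSeq promoters (GRCm38.p6), from 250 bases before to 50 bases after the annotated start, in the direction of transcription. Capitals mark matches to the motifs searched on both strands. Sdha lies on the minus strand at chr13:74350191-74350490 and holds 3 NRF1 matches. Sdhb lies on the plus strand at chr4:140961021-140961320 and holds none. Sdhd lies on the minus strand at chr9:50603800-50604099 and holds 1 NRF1 and 1 ERR match. Sdhaf3 lies on the plus strand at chr6:6955768-6956067 and holds 1 NRF1 match. Cox7a1 lies on the plus strand at chr7:30183921-30184220 and holds 2 GATA matches.
Sdha: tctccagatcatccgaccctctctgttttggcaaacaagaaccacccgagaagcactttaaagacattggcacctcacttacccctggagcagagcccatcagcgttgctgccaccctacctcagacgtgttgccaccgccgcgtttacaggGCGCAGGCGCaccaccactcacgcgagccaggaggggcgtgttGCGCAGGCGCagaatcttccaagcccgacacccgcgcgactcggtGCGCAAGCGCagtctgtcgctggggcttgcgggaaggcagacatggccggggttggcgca
Sdhb: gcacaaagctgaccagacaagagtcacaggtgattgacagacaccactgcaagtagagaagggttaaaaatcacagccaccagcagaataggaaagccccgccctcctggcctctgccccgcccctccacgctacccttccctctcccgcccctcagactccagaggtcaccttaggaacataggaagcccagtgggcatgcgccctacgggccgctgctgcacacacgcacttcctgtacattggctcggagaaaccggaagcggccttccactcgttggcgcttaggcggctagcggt
Sdhd: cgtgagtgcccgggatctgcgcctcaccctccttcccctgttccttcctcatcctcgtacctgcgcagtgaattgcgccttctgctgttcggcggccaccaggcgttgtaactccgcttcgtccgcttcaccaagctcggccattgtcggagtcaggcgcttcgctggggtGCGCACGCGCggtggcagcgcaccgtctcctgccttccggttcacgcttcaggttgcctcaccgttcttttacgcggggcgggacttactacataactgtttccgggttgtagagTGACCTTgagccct
Sdhaf3: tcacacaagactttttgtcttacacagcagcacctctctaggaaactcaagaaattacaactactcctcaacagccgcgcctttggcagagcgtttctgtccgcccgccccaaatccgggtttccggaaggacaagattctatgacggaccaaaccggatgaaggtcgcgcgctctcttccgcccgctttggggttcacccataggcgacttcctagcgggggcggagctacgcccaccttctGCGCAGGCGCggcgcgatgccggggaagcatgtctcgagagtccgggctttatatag
Cox7a1: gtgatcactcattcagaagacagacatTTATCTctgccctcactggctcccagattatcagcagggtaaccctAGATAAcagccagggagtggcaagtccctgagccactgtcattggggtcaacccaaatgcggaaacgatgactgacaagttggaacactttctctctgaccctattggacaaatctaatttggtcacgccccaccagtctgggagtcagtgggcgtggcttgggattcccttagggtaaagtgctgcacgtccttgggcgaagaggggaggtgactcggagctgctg

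Across the set, 77 genes had a promoter in the RefSeq table. The NRF1 motif, shown in capitals in the Sdha promoter and named for a regulator of nuclear genes for mitochondrial proteins, was in 19 of them (24.7%), against 4.78% of all 27025 promoters and 10.4% of the promoters of the genes tested. The YY1 motif AAGATGGCG was in 6 (7.79%), against 1.49% of all promoters and 3.24% of those of tested genes. The ERR motif AAGGTCA, read by estrogen-related receptors, was in 7 (9.09%), against 4.66% and 3.27%. The ETS motif CCGGAAGT was in 5 (6.49%), above the 4.0% of all promoters and below the 8.24% of those of tested genes. The GATA motif AGATAA was in 5 (6.49%), against 11.4% of all promoters and 6.49% of those of tested genes. No letters of these motifs overlapped in the 5 promoters shown. The 19 genes with the NRF1 letters had a median difference of 0.34 between wild-type jejunum and ileum, and the 56 tested genes with a promoter but without them 0.25. The same medians were -0.30 and -0.24 in the jejunum labelled cKO against wild-type jejunum, and -0.04 and 0.18 in control against wild-type ileum. Each match is a string of letters in this window and not a measured site.

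Between the wild-type regions, each respiratory chain gene that passed the test was higher in the jejunum. At an adjusted p under 0.05, 23 of 89 were higher in wild-type jejunum than in wild-type ileum and 0 were lower. Over all 11784 genes tested, 13.4% were called higher and 7.91% lower. The median difference of the 89 genes was 0.25 on the log2 scale, a ratio of 1.19, against 0.00 over all genes tested. The difference was above 0 in 82 of 89 genes, or 92.1%, against 50.5% of all genes. In 50 genes all 3 jejunal arrays lay above all 3 ileal arrays, which held for 22.2% of all genes, and in 0 genes they all lay below, which held for 18.0%. Within the levels that hold the middle of the set (7.765 to 10.422), 13 of 45 members were called higher, against 18.9% of the 3184 other genes of that range. The count was 10 without wild-type ileum replicate 1 or jejunum replicate 2, 11 without jejunum replicate 1 and 15 without ileum replicate 2. Of the 23 calls, 8 held with any 1 of the 6 arrays left out. With the replicate number as a block within the wild-type arrays, 16 of the 23 held.

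Complex II showed the most uniform difference: 4 of its 4 subunits were higher in the jejunum. Sdha, the flavoprotein that oxidises succinate, had log2 levels of 10.91, 10.83 and 11.03 in wild-type jejunum, against 10.49, 10.54 and 10.62 in wild-type ileum. Sdhb, the iron-sulfur subunit, had 10.57, 10.40 and 10.34 in the jejunum, against 9.73, 9.93 and 10.05 in the ileum. The jejunal and ileal arrays did not overlap for either gene, and the differences were 0.37 ± 0.0872 for Sdha (limma, adjusted p = 0.00592) and 0.53 ± 0.104 for Sdhb (limma, adjusted p = 0.00161). The membrane anchor Sdhc had 9.91, 10.08 and 10.12 in the jejunum, against 9.35, 9.42 and 9.56 in the ileum. The other anchor, Sdhd, had 10.71, 10.68 and 10.51 in the jejunum, against 10.03, 10.23 and 10.11 in the ileum. Again no array of one region fell within the range of the other, with differences of 0.59 ± 0.124 for Sdhc (limma, adjusted p = 0.00274) and 0.51 ± 0.138 for Sdhd (limma, adjusted p = 0.0152). In limma, the Sdhd call ended without wild-type ileum replicate 1 (adjusted p = 0.0595), jejunum replicate 1 (0.0594) or jejunum replicate 2 (0.058). With the mean level of 12 stromal markers as a covariate, the calls of Sdha (limma, adjusted p = 0.101) and Sdhd (0.604) ended, and those of Sdhb and Sdhc did not.

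Of the 11 assembly factors, Sdhaf3 alone was called between the regions. Sdhaf3 helps to mature the iron-sulfur subunit of complex II. It had 6.09, 6.02 and 5.84 in wild-type jejunum, against 5.40, 5.29 and 5.50 in wild-type ileum, without overlap, and differed by 0.59 ± 0.142 (limma, adjusted p = 0.00758, and 0.215 with the stromal covariate). The other complex II factors Sdhaf1, Sdhaf2 and Sdhaf4 differed by 0.14, 0.34 and 0.22 and were not called.

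**Figure D1:**
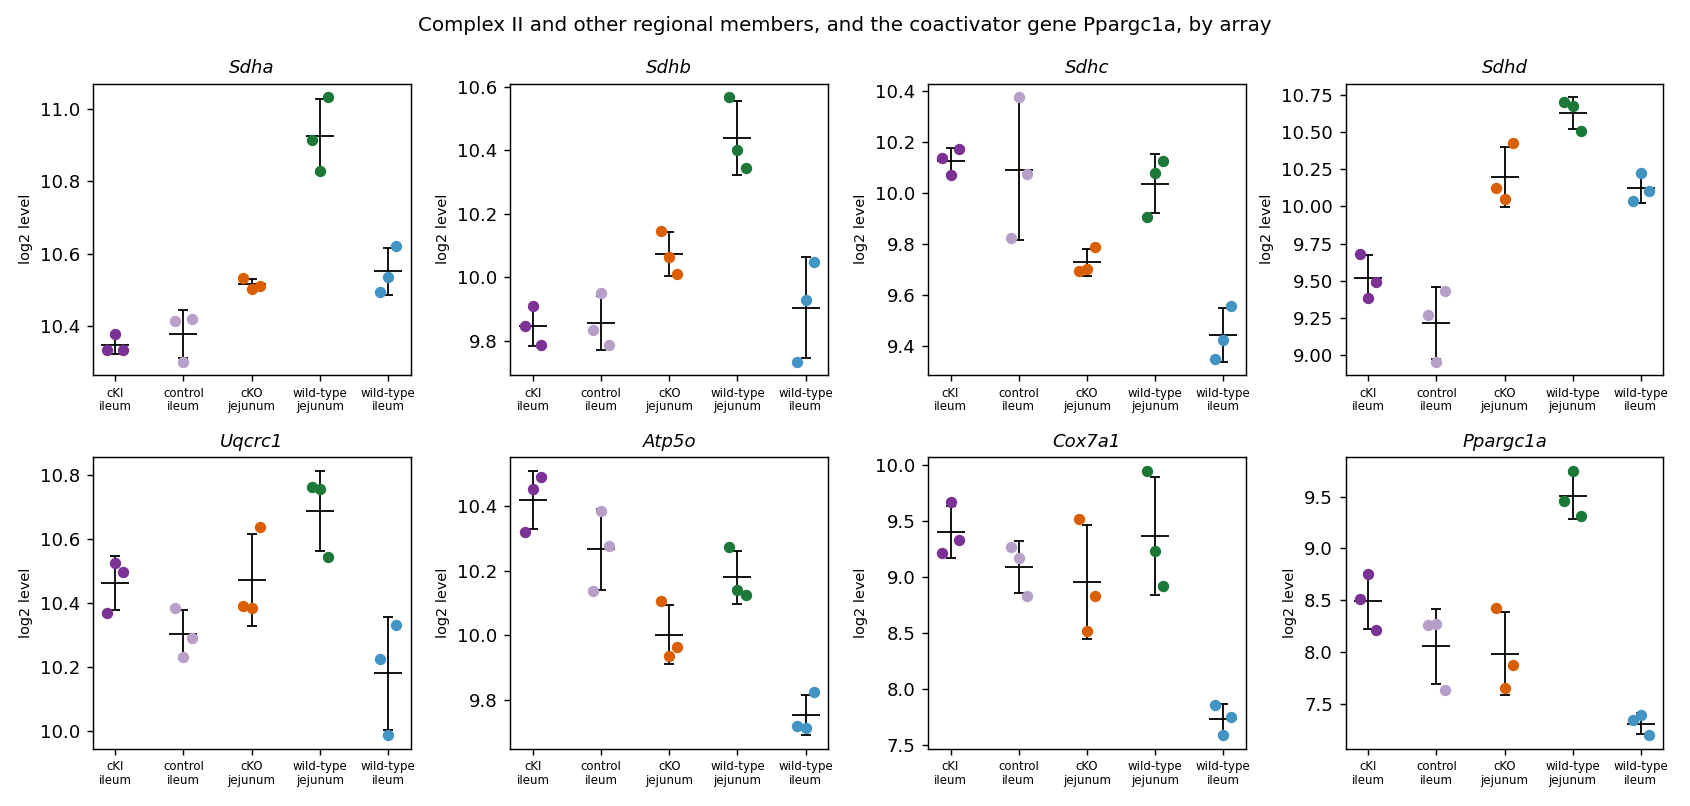
Log2 level of 7 respiratory chain genes and of Ppargc1a in each array, with 3 points per group, the group mean as a long bar and whiskers of 1 SD. The y axes do not start at 0 and differ between panels. Sdha and Sdhb were highest in the 3 wild-type jejunum arrays, and Cox7a1 lay between 7.58 and 7.86 in wild-type ileum.

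In complex I, 10 of 35 genes tested were higher in the jejunum, with a median difference of 0.24. They included the core subunits Ndufv1, which binds NADH and differed by 0.32, Ndufs1, which carries iron-sulfur clusters and differed by 0.37, and Ndufs7. The accessory subunits among them were Ndufs5 (0.63), Ndufb6 (0.48), Ndufa1 (0.44), Ndufa7 (0.43), Ndufc1 (0.41), Ndufb10 (0.39) and Ndufa10 (0.39). Ndufs5 had 8.68, 8.02 and 8.28 in wild-type jejunum, against 7.71, 7.36 and 8.03 in wild-type ileum, so that 1 jejunal array fell just under the highest ileal one. Its call (limma, adjusted p = 0.0436) ended when ileum replicate 1 (0.0916), ileum replicate 2 (0.188), jejunum replicate 1 (0.198) or jejunum replicate 3 (0.0754) was left out. Ndufa10 had 10.39, 10.46 and 10.46 in the jejunum, against 9.97, 10.07 and 10.10 in the ileum, with no overlap. It differed by 0.39 ± 0.087 (limma, adjusted p = 0.00467). Of the complex I calls, that of Ndufa10 held with any single array left out. Leaving out 1 array took the highest adjusted p in limma to 0.0622 for Ndufa1 (jejunum replicate 1), to 0.0658 for Ndufb6 (ileum replicate 1, with jejunum replicate 2 also ending it), and to 0.113 to 0.19 for Ndufs1, Ndufv1, Ndufs7, Ndufa7, Ndufb10 and Ndufc1, each of which lost the call without ileum replicate 1 and without at least 3 other arrays. With the replicate number as a block, the calls of Ndufv1, Ndufs7, Ndufa7 and Ndufb10 ended (limma, adjusted p = 0.0678, 0.102, 0.0687 and 0.0595).

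In complex III, 3 of 8 genes were higher in the jejunum and 8 of 8 differences were above 0. Uqcrc1, a core protein of the complex, had 10.77, 10.76 and 10.54 in wild-type jejunum, against 10.22, 9.99 and 10.33 in wild-type ileum. All 3 jejunal arrays lay above the ileal ones, a difference of 0.51 ± 0.115 (limma, adjusted p = 0.00466, and 0.0958 with the stromal covariate). Uqcrfs1, the Rieske iron-sulfur protein, differed by 0.46 and Uqcrc2, the second core protein, by 0.33. The Uqcrfs1 call (limma, adjusted p = 0.0482) ended with any 1 of the 6 wild-type arrays left out (0.0699 to 0.134), and with the stromal covariate its difference was -0.06 (adjusted p = 0.825). That of Uqcrc2 ended without replicate 1 or 2 of either region (up to 0.0979) and with the replicate number as a block (0.0537).

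The ATP synthase had 4 of 17 genes higher in the jejunum. Atp5o, the stalk protein that confers sensitivity to oligomycin, had 10.28, 10.14 and 10.13 in wild-type jejunum, against 9.72, 9.71 and 9.83 in wild-type ileum. The regions were well apart, by 0.43 ± 0.0985 (limma, adjusted p = 0.00545). Atp5d, of the central stalk, differed by 0.38, Atp5g3, one of 3 genes for the proton-carrying c subunit, by 0.33, and Atp5b, which holds the catalytic sites, by 0.27. The other c-subunit genes were not called, at 0.31 for Atp5g1 (limma, adjusted p = 0.0582, and 0.0321 with quantile normalization) and -0.02 for Atp5g2. The Atp5g3 call ended without jejunum replicate 2 (limma, adjusted p = 0.0724). Those of Atp5d and Atp5b ended without replicate 1 or 2 of either region, and for Atp5b also without ileum replicate 3 (limma, adjusted p up to 0.145 and 0.11), and with the replicate block (0.0672 and 0.0792).

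Complex IV had the largest single difference and few calls, 1 of 14. Cox7a1, the heart and skeletal muscle form of subunit 7a, had 9.95, 9.23 and 8.92 in wild-type jejunum, against 7.86, 7.58 and 7.75 in wild-type ileum. The lowest jejunal array lay well above the highest ileal one, and the difference was 1.64 ± 0.258, or 3.11-fold (limma, adjusted p = 0.000295). Cox7a2, the common form of the same subunit, differed by 0.32 and was not called. The other muscle form tested, Cox6a2, differed by -0.09, and its common partner Cox6a1 by 0.34, neither of them called (limma, adjusted p = 0.0631 for Cox6a1, and 0.0445 with the 75th percentile filter).

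**Figure D2:**
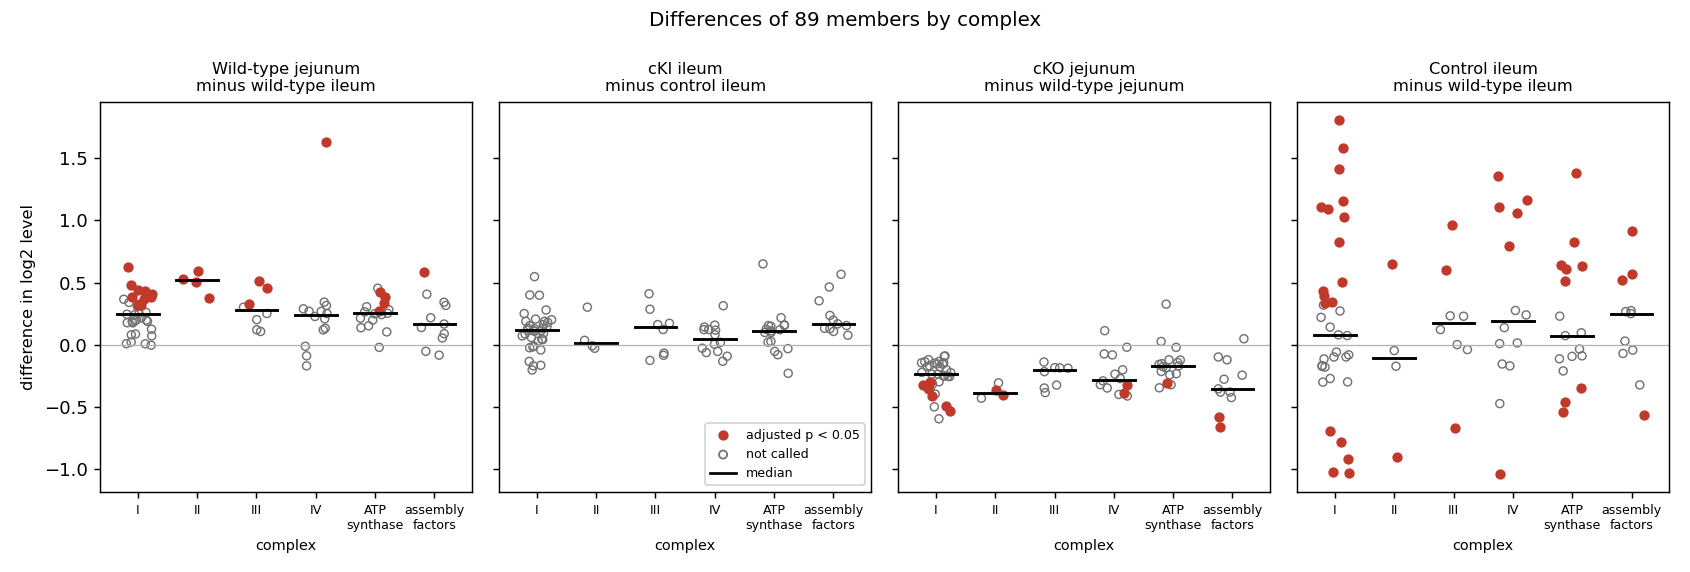
Difference in mean log2 level for each of the 89 genes tested, by complex, in 4 comparisons. Filled points passed an adjusted p of 0.05 in limma, open points did not, and bars are medians. In the first panel, 82 of 89 genes lie above 0, and in the third, 85 of 89 lie below 0.

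Cell markers also differed between the wild-type regions. Of 9 enterocyte markers, 6 were higher in the jejunum and 0 lower, and their summed log2 level ran from 15.55 to 15.74 in wild-type jejunum and from 14.36 to 14.96 in wild-type ileum. The smallest p among them were those of Mttp, Apoa4 and Alpi. Apoa4 ran from 13.24 to 13.53 in the jejunum and from 7.39 to 9.56 in the ileum. Krt20 (11.56 to 11.98 and 11.68 to 12.14) and Anpep (13.15 to 13.17 and 12.74 to 13.17) overlapped between jejunum and ileum. Of 12 stromal and smooth muscle markers tested, 0 were higher and 8 were lower in the jejunum, with summed levels of 8.47 to 8.69 in the jejunum and 9.18 to 9.66 in the ileum. In wild-type jejunum 8 of the 14 stromal genes on the array were under the level filter, Des, Myh11 and Tagln among them. Of 5 goblet cell markers, 0 were higher and 5 were lower, and of 6 B and plasma cell markers 0 and 2. In such bulk RNA, fewer cells of a type and less RNA per cell cannot be told apart. With the stromal covariate, 5 respiratory chain genes were called, all higher: Atp5o, Cox7a1, Sdhb, Sdhc and Cox7a2l, the last of which was not called without it. The median difference of the 89 genes was then 0.13. The slope of the stromal covariate came from the spread of arrays within groups, while the stromal levels of the wild-type regions did not overlap. It therefore cannot divide the regional differences between stroma and epithelium. The part of stroma and of the other markers in these differences was not tested.

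The same genes were read in the ileum of Gata4 cKI mice against the ileum labelled control, whose genotype the labels do not give. At an adjusted p under 0.05, 0 of 89 were called in limma, while 0.339% of all genes were called higher and 0.424% lower, 0.764% in all. At an unadjusted p under 0.05 in limma, 11 of 89 were higher and 0 lower in cKI ileum. Of all 11784 genes tested, 1025 were higher and 779 lower at that threshold, 15.3% in either direction. The median difference was 0.12, against 0.03 over all genes tested, and 67 of 89 differences (75.3%) were above 0, against 56.7% of all genes. With the stromal covariate the median was 0.002, and without control ileum replicate 2 it was 0.06. In 16 genes all 3 cKI arrays lay above all 3 control arrays, which held for 13.2% of all genes, and in 1 gene they lay below, which held for 7.73%.

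The genes with the smallest p in cKI ileum were Atp5e, Ndufa2 and Uqcr10. Atp5e, a central stalk subunit of the ATP synthase, had 8.64, 8.45 and 8.45 in cKI ileum, against 8.11, 7.57 and 7.92 in control ileum. The groups did not overlap, and the difference was 0.65 ± 0.146 (limma, adjusted p = 0.0584). Ndufa2, an accessory subunit of complex I, had 8.85, 8.78 and 8.99 in cKI ileum, against 8.39, 8.42 and 8.61 in control ileum, also without overlap (0.40 ± 0.101, limma, adjusted p = 0.0878). Complex II, uniform between the wild-type regions, showed differences here of -0.03 for Sdha, -0.01 for Sdhb, 0.03 for Sdhc and 0.30 for Sdhd. Cox7a1 differed by 0.31 ± 0.258 (limma, adjusted p = 0.581). Of the 12 stromal markers, 0 were higher and 2 were lower in cKI ileum, and their summed level ran from 9.13 to 9.58 in cKI ileum and from 9.54 to 11.004 in control ileum, where replicate 2 stood apart at the top. Of 5 goblet markers 0 were higher and 1, Clca1, was lower, by -0.74 (limma, adjusted p = 0.0141). Of 6 B and plasma cell markers 0 were higher and 1, Jchain, was lower, with summed levels of 7.52 to 7.77 in cKI ileum and 8.08 to 9.91 in control ileum. Of 6 T and NK cell markers tested 0 were called, with a median difference of -1.21 and summed levels of 7.93 to 9.29 in cKI ileum and 9.45 to 10.09 in control ileum. The part of these cells in the differences was not tested, and the stromal covariate, with a slope from within groups, does not settle it for stroma.

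In the jejunum labelled cKO, each respiratory chain gene that passed the test was lower than in wild-type jejunum. Of 89 genes, 13 were lower and 0 higher, against 7.65% of all genes called lower and 5.17% called higher. The median difference was -0.24, a ratio of 0.848, against -0.03 over all genes tested, and 85 of 89 differences were below 0; the 4 above 0 were 4.49% of the set, against 45.2% of all genes. In 38 genes all 3 arrays labelled cKO lay below all 3 wild-type arrays, which held for 15.8% of all genes, and in 1 gene, Atp5g2, they lay above, which held for 11.3%. This comparison shares its wild-type jejunum arrays with the comparison of regions, so genes high in those arrays enter both. The count was 2 without wild-type jejunum replicate 1, 3 without replicate 2, 4 without cKO replicate 2 and 8 without cKO replicate 1. With arrays centred on their medians 3 genes were called, all lower, and with quantile normalization 7 were lower and Atp5g2 was higher.

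Complex II again had 4 of 4 genes without overlap, with 2 of 4 called. Sdha had 10.53, 10.50 and 10.51 in the jejunum labelled cKO, against 10.91, 10.83 and 11.03 in wild-type jejunum. The 3 cKO arrays lay close together below the wild-type ones, and the difference was -0.41 ± 0.0872 (limma, adjusted p = 0.0055, and 0.0661 with only the arrays of these groups). Sdhb had 10.15, 10.06 and 10.01 in the jejunum labelled cKO, against 10.57, 10.40 and 10.34 in wild-type jejunum. It fell by 0.36 on the log2 scale (limma, adjusted p = 0.0311), a call that ended without wild-type jejunum replicate 1 (0.14) or 2 (0.0717) and without cKO replicate 2 (0.0816) or 3 (0.0791). Sdhd differed by -0.43 (limma, adjusted p = 0.0531) and Sdhc by -0.31 (limma, adjusted p = 0.127). Sdhaf3 had 5.24, 5.46 and 5.49 in the jejunum labelled cKO, against 6.09, 6.02 and 5.84 in wild-type jejunum. The difference was -0.59 ± 0.142 (limma, adjusted p = 0.0127, and 0.0593 without wild-type jejunum replicate 1), the same size as between the regions.

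In complex I, 6 of 35 genes were lower in the jejunum labelled cKO and each of the 35 differences was below 0. Ndufa1, a small accessory subunit encoded on the X chromosome, had 8.33, 8.18 and 8.28 in the jejunum labelled cKO, against 8.98, 8.82 and 8.58 in wild-type jejunum. The arrays did not overlap and the difference was -0.53 ± 0.112 (limma, adjusted p = 0.00503). Ndufa7 differed by -0.49, Ndufb5 by -0.42, Ndufb8 by -0.35, Ndufv1 by -0.32 and Ndufa10 by -0.30, all called. With 1 array left out, adjusted p in limma reached 0.108 for Ndufa7, 0.167 for Ndufb5, 0.176 for Ndufb8, 0.173 for Ndufv1 and 0.107 for Ndufa10; each of these calls ended without wild-type jejunum replicate 1, wild-type jejunum replicate 2 or cKO replicate 1. The assembly factor Ndufaf2 had 5.83, 5.44 and 6.38 in the jejunum labelled cKO, against 6.77, 6.38 and 6.48 in wild-type jejunum. Its difference of -0.66 was the largest called (limma, adjusted p = 0.0341), but the cKO arrays spread widely and the groups shared the value 6.38. Leaving out 1 array ended the Ndufaf2 call for 5 of the 6 arrays (adjusted p of 0.0511 to 0.155), the exception being cKO replicate 3.

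The remaining calls in the jejunum labelled cKO were Cox7b (-0.39) and Cox6c (-0.33) of complex IV and Atp5g3 (-0.31) of the ATP synthase; each ended without wild-type jejunum replicate 1 or 2 or cKO replicate 2 (limma, adjusted p up to 0.182, 0.17 and 0.136). Complex III had 0 of 8 genes called, with differences from -0.39 to -0.14. With the mean of its transcript clusters, Uqcr11 was called lower (limma, adjusted p = 0.0287). Cox7a1 had 9.51, 8.51 and 8.83 in the jejunum labelled cKO, against 9.95, 9.23 and 8.92 in wild-type jejunum, so the groups overlapped (-0.41 ± 0.258, limma, adjusted p = 0.349). Among the c-subunit genes, Atp5g2 had 10.10, 10.17 and 10.28 in the jejunum labelled cKO, against 9.90, 9.92 and 9.75 in wild-type jejunum. It was the gene above its wild-type arrays, by 0.33 ± 0.105 (limma, adjusted p = 0.055), while Atp5g3 was lower and Atp5g1 differed by -0.19.

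Of the 9 enterocyte markers, 1 was lower and 0 higher in the jejunum labelled cKO, with summed levels of 14.93 to 15.52 there and 15.55 to 15.74 in wild-type jejunum. Of 5 goblet markers 4 were higher, and of 12 stromal markers 1 was higher and 0 lower. With the stromal covariate, 7 respiratory chain genes were called, all lower, and the median difference was -0.18. The calls of Ndufaf2, Ndufb5, Ndufb8, Ndufv1, Cox7b, Cox6c and Atp5g3 ended with it (limma, adjusted p from 0.0509 to 0.12), and Cox7a2l was called (0.0134). The part of the stromal, enterocyte and goblet markers was not tested.

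**Figure D3:**
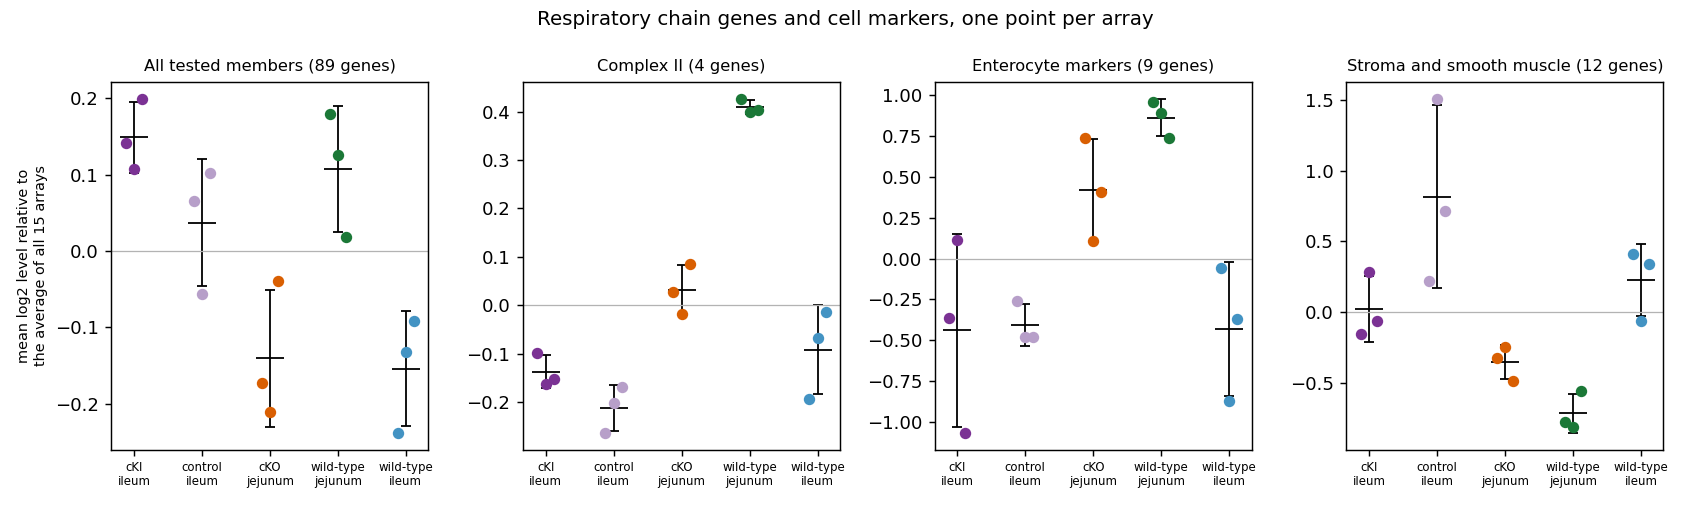
Mean log2 level of the 89 genes tested, of the 4 complex II genes, of 9 enterocyte markers and of 12 stromal markers in each array, each gene first centred on its mean over the 15 arrays. Points are arrays, long bars group means and whiskers 1 SD, with 3 arrays per group. The 89 genes averaged from -0.21 to -0.04 in the jejunum labelled cKO and from 0.02 to 0.18 in wild-type jejunum.

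Averaged over the 89 genes, the level of an array relative to the mean of all 15 was 0.14, 0.11 and 0.20 in cKI ileum and 0.07, -0.06 and 0.10 in control ileum. It was -0.17, -0.21 and -0.04 in the jejunum labelled cKO, 0.18, 0.13 and 0.02 in wild-type jejunum, and -0.24, -0.13 and -0.09 in wild-type ileum. The wild-type jejunum thus lay above the other CD1 region and above the jejunum labelled cKO in each array. Control ileum replicate 2, the lowest of the cKI and control arrays, was also the array with the highest stromal level.

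Regulators and neighbouring pathways were read beside these genes. Ppargc1a, the coactivator PGC-1alpha that drives mitochondrial biogenesis, had 8.43, 7.66 and 7.87 in the jejunum labelled cKO, against 9.46, 9.75 and 9.31 in wild-type jejunum. It had 7.34, 7.39 and 7.20 in wild-type ileum, so that neither group reached the wild-type jejunum. Ppargc1a differed by 2.19 ± 0.211 between wild-type jejunum and ileum (limma, adjusted p = 2.93e-06). It fell by 1.52 on the log2 scale in the jejunum labelled cKO (limma, adjusted p = 0.00021). In cKI ileum it had 8.52, 8.76 and 8.21, against 8.26, 8.27 and 7.64 in control ileum (0.44 ± 0.211, limma, adjusted p = 0.338). Of the 12 regulators listed, 2 were higher in wild-type jejunum than in wild-type ileum and 1 was lower in the jejunum labelled cKO, Ppargc1a being in both counts. Against wild-type ileum, control ileum had 2 of them higher, Yy1 and Ppargc1a, and 0 lower. The median difference of the 89 genes there was 0.10, against 0.09 over all genes tested.

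A list of tricarboxylic acid cycle and pyruvate dehydrogenase genes, which feed the chain, had 9 of 16 higher and 0 lower in wild-type jejunum against ileum. All genes tested had 13.4% called higher and 7.91% lower there. In the jejunum labelled cKO 0 of the 16 were higher and 4 lower, against 5.17% and 7.65% of all genes. Mdh2, the mitochondrial malate dehydrogenase, had 11.58, 11.28 and 11.53 in the jejunum labelled cKO, against 12.25, 12.09 and 12.04 in wild-type jejunum. It differed by 1.10 ± 0.117 between the wild-type regions and by -0.66 ± 0.117 in the jejunum labelled cKO (limma, adjusted p = 7.63e-06 and 0.00145). Dlat, of pyruvate dehydrogenase, differed by 0.98 between the regions and by -0.75 in the jejunum labelled cKO, both called. A list of cytochrome c, cytochrome c1, assembly factors and the ATP synthase inhibitor Atpif1, outside the symbols used, had 4 of 21 genes higher and 0 lower between the regions. In the jejunum labelled cKO it had 0 higher and 1 lower, Atpif1. Glycolysis had 4 of 11 higher and 1 lower between the regions, the lower one being Hk2, a hexokinase, at -2.53. In cKI against control ileum, 1 gene of these 4 lists was called, Foxred1, a complex I assembly factor (0.64 ± 0.13, limma, adjusted p = 0.038).

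The control ileum and the wild-type ileum, which are both ileum without a Gata4 change in their labels, gave the most calls of the 4 comparisons at these genes. Gata4 itself did not overlap there, with 6.72, 7.22 and 6.53 in control ileum, against 5.99, 5.43 and 5.39 in wild-type ileum. Of 89 genes, 30 were higher and 12 lower in control ileum, against 19.3% of all genes called higher and 8.61% called lower, 27.9% in all. In 36 genes all 3 control arrays lay above all 3 wild-type arrays, which held for 29.4% of all genes, and in 17 they lay below, which held for 15.4%. The median difference was 0.10, against 0.09 over all genes tested. Quantile normalization moved the median over all genes to -0.02 and that of the 89 genes to -0.02, and gave 25 higher and 17 lower, so the sign of these medians turned with the scaling and the set lay at the level of all genes in both. Calls of both directions came from complex I (13 higher, 5 lower, Ndufa4 counted here by its symbol), complex IV (5 and 1) and the ATP synthase (6 and 3). They also came from complex II (1 and 1), complex III (2 and 1) and the assembly factors (3 and 1). The labels name the control mice by no strain, and whether these samples were handled together with the wild-type ones is not given in the sources used here, so strain, handling and processing cannot be told apart in this comparison.

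Cell markers moved with this comparison too. Of 10 crypt and proliferation markers, 5 were higher and 0 lower in control ileum (median difference 0.40), with Cdk1, a cell cycle kinase, at 1.04. Mki67 and Top2a, of the same list, overlapped between the groups. Mki67 had 9.67, 9.35 and 9.58 in control ileum, against 9.57, 9.99 and 9.76 in wild-type ileum. Top2a had 9.02, 8.64 and 8.99, against 8.65, 9.23 and 8.98. Of 12 stromal markers 4 were higher and 1 lower (median 0.67), with summed levels of 9.54 to 11.004 in control ileum and 9.18 to 9.66 in wild-type ileum. Of 7 enteroendocrine markers 3 were higher and 0 lower, and of 5 goblet markers 2 were higher and 1 lower. Of 6 T and NK cell markers 1 was higher, and of 6 B and plasma cell markers 1, Jchain, while 0 of 9 enterocyte markers were called. With the stromal covariate 44 respiratory chain genes were called, 32 higher and 12 lower. The part of the stromal and other markers was not tested.

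The gene with the largest difference was Ndufb11, an accessory subunit of complex I encoded on the X chromosome. Ndufb11 had 9.81, 9.80 and 9.94 in control ileum, against 7.90, 8.06 and 8.14 in wild-type ileum. The gap between the groups was far wider than the spread within either, and the difference was 1.81 ± 0.112, or 3.51-fold (limma, adjusted p = 7.57e-08). Ndufs7, a core iron-sulfur subunit, had 11.31, 11.27 and 11.24 in control ileum, against 9.67, 9.55 and 9.85 in wild-type ileum (1.58 ± 0.11, limma, adjusted p = 2.55e-07). Ndufs4, an accessory subunit, had 10.46, 9.90 and 10.52 in control ileum, against 8.81, 8.84 and 9.01 in wild-type ileum (1.41 ± 0.194, limma, adjusted p = 0.000139). The 10 largest rises also held Atp5md (1.38), Cox7a1 (1.36), Cox6c (1.16), Ndufb6 (1.16), Ndufc2 (1.11), Cox8a (1.11) and Ndufv2 (1.10).

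Lower in control ileum were other subunits of the same complexes. Cox6a1, the common form of subunit 6a, had 10.47, 10.14 and 10.12 in control ileum, against 11.30, 11.11 and 11.45 in wild-type ileum. The groups were apart, by -1.04 ± 0.123 (limma, adjusted p = 4.45e-05). Ndufa1 had 7.39, 7.17 and 7.42 in control ileum, against 8.42, 8.26 and 8.39 in wild-type ileum (-1.03 ± 0.112, limma, adjusted p = 2.2e-05). Ndufa4, named for complex I and later found in complex IV, differed by -1.02, Ndufs5 by -0.92, Sdhd by -0.91, Ndufb9 by -0.78, Ndufs6 by -0.70 and Uqcrfs1 by -0.67. Subunits of one enzyme thus differed in opposite directions: in complex II, Sdhc was higher by 0.65 and Sdhd lower. Ndufaf7 (-0.57) and Atp5l (-0.54) completed the 10 largest falls.

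The cKI ileum arrays lay with the control ileum arrays at these genes. In 23 of 89 genes all 6 cKI and control arrays were above all 9 cKO and wild-type arrays, which held for 12.6% of all genes, and in 14 genes all 6 were below, which held for 4.36%. This division of the arrays was made after their values were seen and carries no test. Ndufb11 ran from 9.80 to 10.24 in the 6 arrays and from 7.90 to 8.33 in the 9. Ndufa1 ran from 7.17 to 7.42 in the 6 arrays and from 8.18 to 8.98 in the 9. Cox17, a copper chaperone of complex IV outside the symbols used, differed likewise, by -2.15 between control and wild-type ileum (limma, adjusted p = 8.15e-07), and Cyc1, cytochrome c1, by 1.33 (limma, adjusted p = 5.3e-06).

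**Figure D4:**
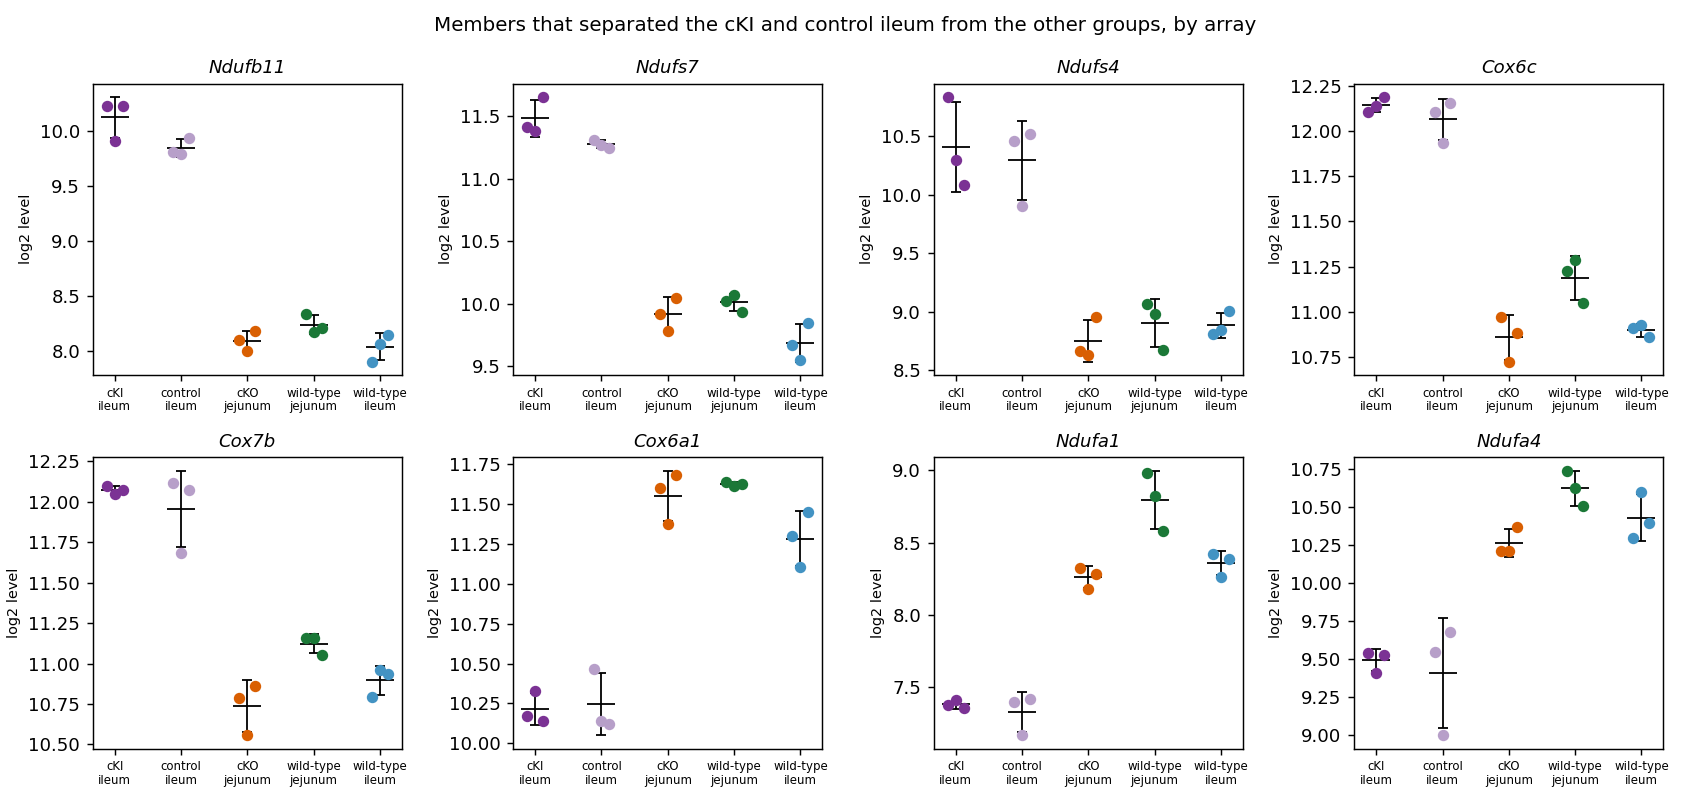
Log2 level of 8 genes in each array, with 3 points per group, the group mean as a long bar and whiskers of 1 SD; y axes do not start at 0. In the upper row and in Cox7b the 6 cKI and control ileum arrays lie above the other 9, and in Cox6a1, Ndufa1 and Ndufa4 they lie below.

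Several of these genes were read by more than 1 transcript cluster, and for each the cluster with the highest mean was used. This applied to 18 genes with 44 clusters, and the annotation does not tell a gene from a near-identical copy, so these levels are uncertain. The clusters of a gene had the same sign in 17 of 18 genes between wild-type jejunum and ileum, in 15 for cKI against control ileum, in 16 for the jejunum labelled cKO and in 16 for control against wild-type ileum. For Ndufb11 the second cluster differed by 1.40 between control and wild-type ileum, beside 1.81 for the one used. The 3 clusters of Atp5md differed there by 1.38, 1.32 and 1.34. Uqcr11 showed the widest spread in the jejunum labelled cKO, at -0.19 for the cluster used and -0.72 for the other.

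**Figure D5:**
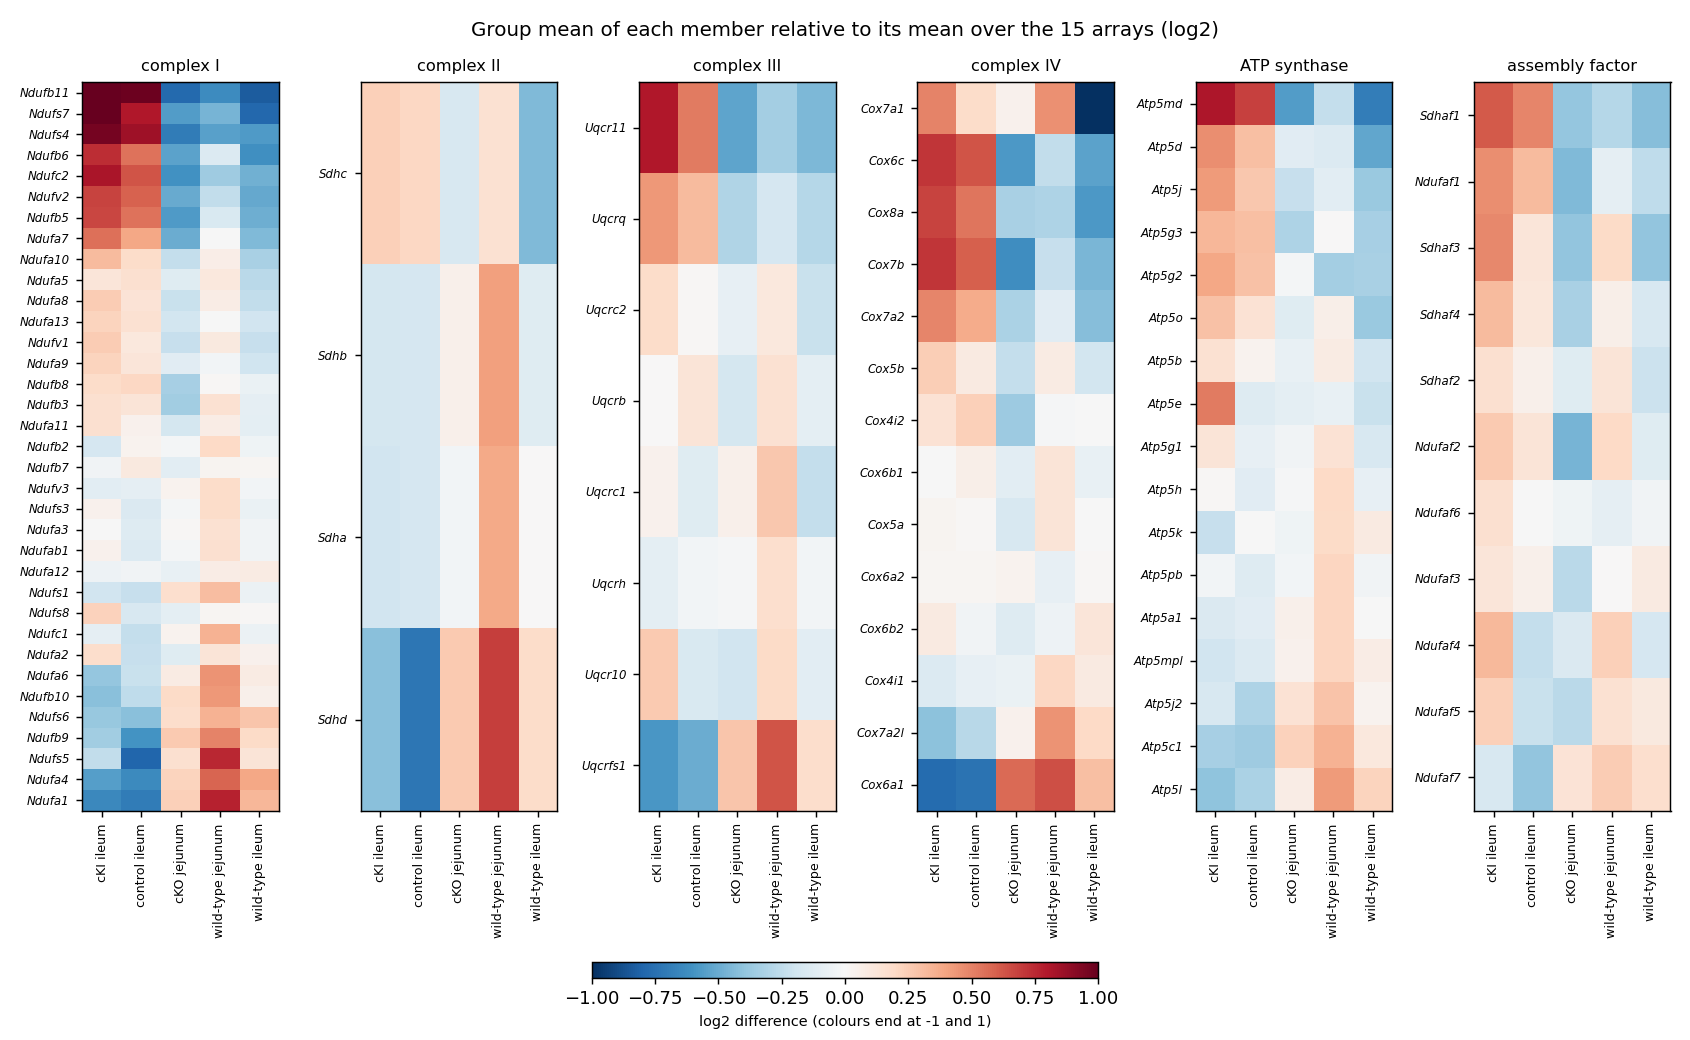
Group mean of each of the 89 genes relative to its mean over the 15 arrays, by complex, on the log2 scale, with colours ending at -1 and 1. Genes are ordered by control ileum minus wild-type ileum. The top row of each block is red in both cKI and control ileum, and the bottom row blue. Near the bottom of the assembly factors, Ndufaf5 had a mean of 5.64 in cKI ileum and 5.17 in control ileum.

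Some subunits have several gene forms that tissues use to different extents. Cox4i1, the common form of subunit 4, and Cox4i2, its oxygen-regulated form, were called in none of the 4 comparisons. With array weights, however, both were called in the jejunum labelled cKO (limma, adjusted p = 0.0473 and 0.0458). Cox4i2 passed the level filter through control ileum alone (mean 4.98). Its means of 4.38 in the jejunum labelled cKO and 4.73 in wild-type jejunum were both under that filter. Cox6a2, Cox6b1 and Cox6b2 were called in none of the 4 comparisons either. Cox7a2l, which joins complexes III and IV, lay near the threshold between control and wild-type ileum, at -0.47 (limma, adjusted p = 0.0566). It was called there under 10 of the 17 alternatives (0.000584 to 0.0483), and its second transcript cluster differed by -1.21. It was also called in the jejunum labelled cKO with the mean of its clusters (limma, adjusted p = 0.0314). Cox8a, the common form of subunit 8, was called between control and wild-type ileum alone. Cox7a1 was called between the wild-type regions and between control and wild-type ileum, with means of 9.40 ± 0.23 in cKI ileum, 9.09 ± 0.23 in control ileum, 8.95 ± 0.51 in the jejunum labelled cKO, 9.37 ± 0.53 in wild-type jejunum and 7.73 ± 0.14 in wild-type ileum (SD, n = 3 each). The wild-type ileum was thus the group that stood apart, while the other 4 overlapped.

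Over all 5 groups, 61 of 89 genes differed by the moderated F test of limma, against 55.2% of all genes. The smallest F-test values were those of Ndufb11, Ndufs7, Cox6c, Ndufa1 and Cox6a1, all among the genes that separated cKI and control ileum from the other arrays. Called in the comparison of wild-type regions under all 17 alternative settings were Atp5o, Cox7a1, Sdhb and Sdhc. For the jejunum labelled cKO this held for Ndufa1, and for control against wild-type ileum for 33 of 42 genes.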

How the data were processed

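Expression was measured with Affymetrix Mouse Gene 1.0 arrays. The deposited log2 values, 1 for each of 35556 transcript clusters, were made by the authors in Partek, per the submitters' processing notes; its version, background correction, normalization and summarization are not given in the sources used here. The log2 scale was read from the range of the values. Clusters with exactly 1 symbol in the platform annotation (21789, for 19938 symbols) were kept, 1621 had several symbols and 12146 were not in it; the cluster with the highest mean stood for a symbol. Genes whose highest mean among the 5 groups was not above 4.91, the median over every deposited value, were set aside, leaving 11784. All 15 arrays entered a single model with 5 group means (limma 3.58.1, R 4.3.3; lmFit, eBayes, 10 residual degrees of freedom), two-sided, with Benjamini-Hochberg adjustment over the genes tested and a threshold of 0.05. Errors of differences are SE.

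The genes, the marker and pathway lists, and the comparisons were chosen with earlier results of these data known, so medians and counts over the set are descriptions. The text names called genes with the largest changes (10 each way), paralogous and catalytic subunits, list genes with the smallest p, the smallest F-test values and Gata4. Equal replicate numbers correlated, after group means were removed, by 0.334, 0.216 and 0.161 for jejunum with ileum of wild-type mice and by 0.128, 0.177 and 0.258 for cKI with control ileum, all above the limit of 0.1; not every pair passed it for cKO with wild-type jejunum, and none for control with wild-type ileum. The labels do not state what the numbers mean. The steps were tested on simulated data. Alternatives were another filter, scaling, replicate block, array weights, variance model, cluster rule, a stromal covariate, the arrays of 2 groups alone, and each array left out.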

Additional observations from a re-analysis of the deposited data

How the results depend on the processing

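Between wild-type jejunum and ileum, the 23 genes called became 14 without the level filter, 39 with array weights and 5 with the stromal covariate, which took their median difference to 0.133; the counts were 10 to 24 with 1 array left out. With that covariate Uqcrfs1 turned to the other sign (adjusted p = 0.825 in limma). For cKI against control ileum, 0 called genes became 1 with the 75th percentile filter, 3 with array weights and 1 with the trended, robust variance model, and were 0 to 1 with 1 array left out (1 without control ileum replicate 1); the median was 0.002 with the stromal covariate. For the jejunum labelled cKO, 13 called genes became 5 without the level filter, 8 with quantile normalization (7 lower, and Atp5g2 higher), 3 with arrays centred on their medians, 20 with array weights, 7 with the stromal covariate and 2 with the arrays of the 2 groups alone, and were 2 to 14 with 1 array left out. There the replicate block gave 8 over all arrays and 5 within sets of arrays, although the labels do not state whether those numbers pair the arrays. The replicate block within sets gave 16 calls between the wild-type regions, 0 for cKI and 42 for control against wild-type ileum, where counts otherwise ran from 37 to 51 and the median turned to -0.02 with quantile normalization. Quantile normalization took the share of called genes that were higher, over all genes, to 52% from 62.8% between the wild-type regions, to 33.7% from 44.4% for cKI, to 51.2% from 40.3% for the jejunum labelled cKO and to 47.9% from 69.1% for control against wild-type ileum, where centring gave 58.6%. Over all genes, the 90 called for cKI became 766 with array weights, 52 without the level filter, 12 with the stromal covariate, 19 with the 2 groups alone and 20 to 176 with 1 array left out. The 2507 called between the wild-type regions became 3967 with array weights and 1644 with the stromal covariate, and the 1510 for the jejunum labelled cKO became 979 with the 2 groups alone and 984 without wild-type jejunum replicate 1. The cause of these changes was not tested.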

Other observations

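A further 6 transcript clusters carried a symbol of these families together with other symbols and were left out of the set. Their differences ran from 0.19 to 0.47 between wild-type jejunum and ileum, with 6 of 6 above 0. In the jejunum labelled cKO against wild-type jejunum they ran from -0.56 to -0.34, with 6 of 6 below 0. In cKI against control ileum 3 lay above 0 and 3 below. In control against wild-type ileum 5 lay above 0 and 1 below, from -0.74 to 1.67.

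Among glycolytic enzymes, Hk2, a hexokinase, had log2 levels of 7.24, 7.41 and 7.86 in the jejunum labelled cKO, against 6.21, 6.26 and 6.12 in wild-type jejunum. It rose there by 1.31 ± 0.264 (limma, adjusted p = 0.00389), and Pgam1, another glycolytic enzyme, fell by 0.70 on the log2 scale (limma, adjusted p = 0.000139). In wild-type ileum Hk2 had 8.60, 9.20 and 8.37.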
